A study of Mus musculus with 4 samples.

Results

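The receptors described here sense chemoattractants other than the CCR7 ligands. They were set by symbol as 9 genes: the chemokine receptor genes Ccr1, Ccr2, Cxcr4 and Cx3cr1, the atypical receptor gene Ccrl2, the formyl peptide receptor genes Fpr1 and Fpr2, and the sphingosine 1-phosphate receptor genes S1pr1 and S1pr3. All probe sets annotated to exactly 1 of these symbols were taken, which gave 15 of the 45037 probe sets that are no controls, for 8 of the 9 genes and of 18193 genes in all. Fpr1 had no such probe set and was not analysed here. A floor of 28.9, the median over all signals, was used, and 12 of the 15 probe sets were above it on every array.

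The series title names liver X receptors (LXRs) as regulators of dendritic cell (DC) chemotaxis, and the arrays compare mouse DCs with and without them. The 4 groups, with 1 array each, were LXR-DKO cells given lipopolysaccharide (LPS), LXR-DKO control cells, WT cells given LPS and WT control cells. LXR-DKO cells lacked both LXRalpha and LXRbeta, nuclear receptors for oxysterols and WT cells carried both. The strain label was C57/BL6 throughout. In all groups bone marrow was grown for 6 to 7 days with GM-CSF at 20 ng/mL and enriched for CD11c on magnetic beads. The cells were then kept for 24 h with GM-CSF at 10 ng/mL, alone as control or with LPS at 100 ng/mL, a bacterial ligand of Toll-like receptor 4 that matures DCs. The labels do not say how many mice stand behind an array, what their age or sex was, or whether cells were pooled.

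With 1 array per group no difference has a replicate check and no test was made. The internal error available is how far probe sets of 1 gene disagree in log2 ratio, as an SD pooled over genes. It was 0.42 for LPS over control in LXR-DKO, 0.29 in WT, and 0.54 with LPS and 0.45 without LPS for LXR-DKO over WT. It covers probe set error only, not that between cultures or mice. Between 47.8% and 52.6% of the probe sets reached the floor on each array. Nr1h3, the targeted gene for LXRalpha, had signals of 27.0 and 40.4 in LXR-DKO cells with and without LPS. In WT cells its signals were 54.5 and 108.6. Where its probe set lies relative to the deletion is not known here. The targeted gene for LXRbeta was not examined here. The CD11c gene Itgax, used for the enrichment, had signals of 3848.1 and 4404.5 in LXR-DKO cells with and without LPS, and of 6093.0 and 5012.2 in WT cells. The X-inactivation transcript Xist had signals of 2090.4 and 2750 in LXR-DKO cells with and without LPS, and of 22.7 and 30.8 in WT cells, and the Y-linked gene Eif2s3y of 384.3 and 279.6 in LXR-DKO, and of 721.0 and 736.6 in WT. The Y-linked gene Kdm5d had signals of 93.2 and 56.1 in LXR-DKO cells with and without LPS, and of 98.1 and 126.2 in WT cells. It differed little between genotypes with LPS and was lower in LXR-DKO without LPS. Uty, also Y-linked, had signals of 128.6 and 69.7 in LXR-DKO cells with and without LPS, and of 291.1 and 300.9 in WT cells. Y-linked genes were thus above the floor on the LXR-DKO arrays beside high Xist. The labels give no sex, and genotype and donor sex cannot be told apart.

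Chemoattractant receptors are mostly receptors with 7 membrane spans that couple to inhibitory G proteins and steer cells up a gradient of their ligand. Immature DCs use inflammatory receptors such as CCR1, CCR2 and the formyl peptide receptors to reach sites of infection. On maturation DCs are known to lose many of these and to gain CCR7, which leads them to lymph nodes. CXCR4 and the sphingosine 1-phosphate receptors also guide leukocytes between blood, tissue and lymph.

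S1pr3, Ccrl2 and Fpr2 were more than 2-fold higher with LPS in both LXR-DKO and WT cells. Ccr2 was more than 2-fold lower in both. Cxcr4 passed 2-fold in LXR-DKO alone and S1pr1 in WT alone, while Ccr1 and Cx3cr1 passed it in neither. Between genotypes, Ccr2 was the only receptor at least 2-fold higher in LXR-DKO cells, in both conditions. In bulk samples fewer cells of a type and less RNA per cell cannot be told apart.

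Beside these counts stand the shares of all measured genes past 2-fold. Since receptors and lists were chosen with earlier results of these data known, a share above that of all genes is no independent evidence. In LXR-DKO 4 of 8 receptors were higher with LPS and 1 lower, 5 in all, where 6.23%, 1.82% and 8.06% of 11793 measured genes were. In WT, too, 4 of 8 were higher and 1 lower, 5 in all, where 2.93%, 4.79% and 7.72% of 11449 genes were. The receptors' median log2 LPS ratio was 0.78 in LXR-DKO, against 0.02 for all measured genes, and 0.77 in WT, against -0.05. Between genotypes the receptors' shares were near or below those of all genes. For LXR-DKO over WT with LPS 1 of 8 was higher and 0 lower, 1 in all, where 17.8%, 8.76% and 26.6% of 12014 genes were. Without LPS 1 of 7 was higher and 1 lower, 2 in all, where 12.7%, 9.28% and 22.0% of 11728 genes were. The receptors' median genotype ratio was -0.08 with LPS, against 0.15 for all measured genes, and -0.14 without LPS, against 0.05. The log2 LPS ratio in LXR-DKO minus that in WT was at least 1 for 1 of 8, Cxcr4 at 1.05, and at or below -1 for 0, where 7.61% and 2.07% of 12478 genes, or 9.67% either way, passed. DC maturation genes passed 2-fold upward with LPS in 10 of 14 in LXR-DKO and in 4 of 14 in WT, with 1 of 14 downward in WT. For LXR-DKO over WT 12 of 14 passed upward and 0 downward with LPS, and 10 of 14 upward and 1 downward without LPS. Their median log2 genotype ratio was 2.38 with LPS and 1.81 without LPS. How these differences relate to those of the receptors was not tested.

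**Figure D1:**
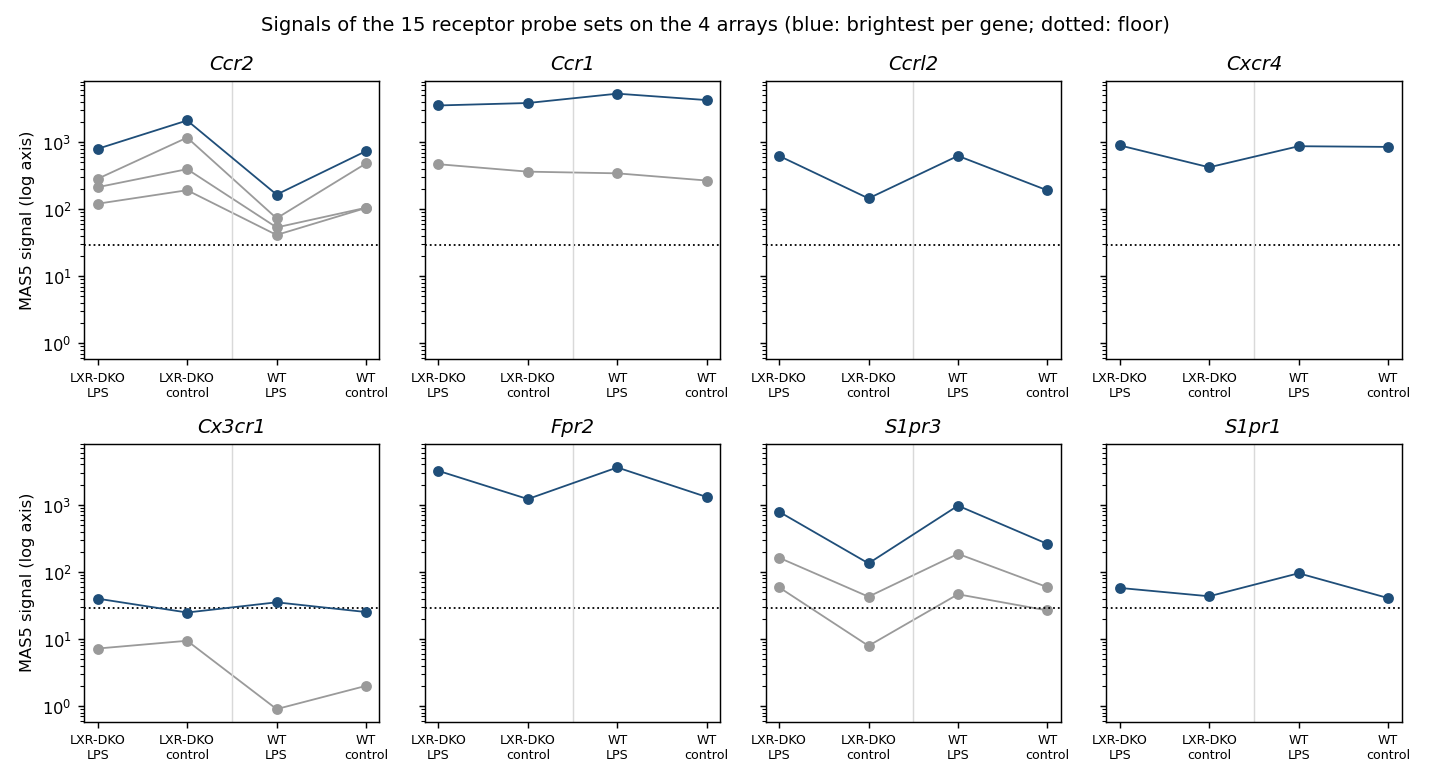
Deposited MAS5 signal (log axis) of the 15 probe sets of 8 receptor genes on the 4 arrays, with LXR-DKO arrays left of WT arrays and LPS left of control within each genotype. Each point is 1 probe set on 1 array, lines join the points of a probe set, the brightest probe set of a gene is blue, and the dotted line is the floor of 28.9. All 4 Ccr2 probe sets are highest in LXR-DKO control cells and lowest in WT cells with LPS, and the Cx3cr1 points lie at or below 39.9.

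Ccr2, the receptor for the monocyte chemoattractants CCL2, CCL7 and CCL12, gave the widest spread over the 4 arrays. Its brightest probe set, 1421186_at, had a signal of 795.2 in LXR-DKO cells with LPS, 2104.7 in LXR-DKO control cells, 165.2 in WT cells with LPS and 736.1 in WT control cells. The LXR-DKO control array was the highest, and the LXR-DKO array with LPS and the WT control array could not be ordered, since they differed by 0.11 on the log2 scale against a probe set spread of 0.53. The WT array with LPS stood below the other three. With LPS the signal was 2.65-fold lower in LXR-DKO (log2 ratio -1.40) and 4.46-fold lower in WT (-2.16). LXR-DKO cells had a 4.81-fold higher signal than WT cells with LPS (2.27) and a 2.86-fold higher signal without LPS (1.52).

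The other Ccr2 probe sets gave the same directions. Probe set 1421187_at had signals of 284.1, 1168.9, 73.2 and 481.7 in LXR-DKO LPS, LXR-DKO control, WT LPS and WT control cells. In the same order 1421188_at had signals of 213.0, 395.8, 53.5 and 105.2, and 1460067_at of 120.7, 192.0, 41.3 and 104.4. Every one of the 4 was higher in LXR-DKO than in WT in both conditions and lower with LPS in both genotypes. Over the 4 probe sets, which share each array and are no replicates, LXR-DKO over WT averaged 1.94 ± 0.30 with LPS and 1.40 ± 0.43 without LPS on the log2 scale (SD, n = 4 probe sets). The LPS response averaged -1.25 ± 0.61 in LXR-DKO and -1.80 ± 0.79 in WT. The genotype difference was thus more uniform over probe sets than the LPS response, whose size ran from -2.04 to -0.67 in LXR-DKO and from -2.72 to -0.98 in WT. The LPS response in LXR-DKO minus that in WT was 0.75 on the log2 scale for the brightest probe set, and 0.68, 0.08 and 0.67 for the others.

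Markers of other cells also differed between the genotypes. Ccr2 is known as a marker of classical monocytes, but the monocyte list was not limited to that type. Of 11 measured monocyte markers other than the receptors here, 7 passed 2-fold upward in LXR-DKO over WT and 1 downward with LPS. Without LPS 4 passed upward and 1 downward. Of all measured genes 17.8% passed upward and 8.76% downward with LPS, and 12.7% and 9.28% without LPS. With LPS over control, 3 of the 11 passed upward and 0 downward in LXR-DKO, and 2 upward and 3 downward in WT. The shares of all measured genes were 6.23% and 1.82% in LXR-DKO, and 2.93% and 4.79% in WT. The summed signal of the monocyte markers was 28143.5 and 22015.5 in LXR-DKO cells with and without LPS, and 25130.4 and 18469.2 in WT cells. Plac8 had a log2 ratio of LXR-DKO over WT of 5.22 with LPS and 1.11 without LPS, Ms4a4c of 2.86 and, as a lower limit, 4.61, and Spn of 3.17 and 1.81, while the Fc receptor gene Fcgr4 stood at -1.19 and -1.11. Macrophage markers went both ways between genotypes, with 3 of 11 measured markers past 2-fold upward and 2 downward with LPS, and 3 upward and 5 downward without LPS. The 3 upward were the complement genes C1qa, C1qb and C1qc, and C1qa had signals of 2680.3 and 5335.4 in LXR-DKO cells with and without LPS, and of 1.5 and 18.0 in WT cells. Downward in both conditions were Cd68, at -2.06 with LPS and -1.31 without LPS, and Msr1, at -1.95 and -1.84. Marco at -3.09, Mrc1 at -2.36 and Gpnmb at -1.13 passed downward without LPS only. The summed signal of the macrophage markers was 25787.8 and 31281.5 in LXR-DKO cells with and without LPS, and 32827.1 and 27421.6 in WT cells.

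Granulocyte, B cell and conventional DC markers were mostly higher in LXR-DKO as well. Plasmacytoid DC markers went both ways with LPS. The shares of all measured genes past 2-fold were 17.8% upward and 8.76% downward with LPS, and 12.7% and 9.28% without LPS. Of the neutrophil and granulocyte precursor markers, 12 of 15 passed 2-fold upward and 1 downward with LPS, and 10 of 16 upward and 2 downward without LPS. Their summed signal was 29831.4 and 25197.3 in LXR-DKO cells with and without LPS, and 13165.7 and 10218.0 in WT cells. The largest part of the WT sums was Mmp8, which was lower in LXR-DKO. Mmp8 had signals of 9716.4 and 7882 in WT cells with and without LPS, and of 3769.1 and 3829.7 in LXR-DKO cells. Mast cell, basophil and eosinophil markers passed 2-fold upward in 9 of 11 with LPS and 6 of 10 without LPS, with summed signals of 3562.3 and 2026.4 in LXR-DKO cells and of 841.1 and 689.3 in WT cells. For B cell markers it was 6 of 10 with LPS and 5 of 9 without LPS, with sums of 7480.4 and 4184.5 in LXR-DKO cells and of 562.2 and 761.6 in WT cells. Of conventional DC markers 10 of 13 passed it with LPS and 9 of 12 without LPS, with sums of 22803.2 and 21338.0 in LXR-DKO cells and of 8164.1 and 7691.5 in WT cells. Of plasmacytoid DC markers 4 of 8 passed upward and 1 downward with LPS and 3 of 7 upward without LPS, with sums of 3128.3 and 1509.2 in LXR-DKO cells and of 4005.2 and 1114.4 in WT cells. Of 9 T and NK cell markers 3 could be measured with LPS and 0 without LPS, 0 passed 2-fold, and the sums were 160.4 and 118.3 in LXR-DKO and 119.9 and 73.6 in WT. No marker of any of these lists was at 0 on any array. The part of all these markers in the Ccr2 differences was not tested.

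Ccr1, the receptor for CCL3, CCL5 and CCL9, had no difference that its probe sets shared between genotypes. Its brightest probe set, 1419609_at, had signals of 3524.2 in LXR-DKO cells with LPS, 3833.4 in LXR-DKO control cells, 5283.0 in WT cells with LPS and 4238.6 in WT control cells. The other, 1419610_at, had signals of 468.8, 363.1, 342.8 and 267.6 in the same order. By the brighter probe set the LXR-DKO arrays were the lower ones, and by the dimmer they were the higher ones. LXR-DKO over WT was -0.58 and 0.45 on the log2 scale with LPS for the 2 probe sets and -0.14 and 0.44 without LPS, so no direction is given. The log2 LPS ratio was -0.12 and 0.37 in LXR-DKO for the brighter and the dimmer probe set, and 0.32 and 0.36 in WT.

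Cxcr4, the receptor for CXCL12, stood apart on a single array. Its 1 probe set, 1448710_at, had signals of 895.2 in LXR-DKO cells with LPS, 421.7 in LXR-DKO control cells, 869.6 in WT cells with LPS and 849.2 in WT control cells. The LXR-DKO control array was the low one, and the other three differed by less than the probe set spread. With LPS the signal was 2.12-fold higher in LXR-DKO (log2 ratio 1.09), while in WT the ratio was 1.02-fold (0.03). Without LPS it was 2.01-fold lower in LXR-DKO than in WT (-1.01), and with LPS the log2 ratio was 0.04. The difference without LPS lay at the 2-fold threshold and fell short of it, at -0.81, when the arrays were scaled to the hybridisation controls.

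Cx3cr1, the receptor for fractalkine and a marker of monocytes and macrophages, was near or below the floor. Its brighter probe set, 1450020_at, had signals of 39.9 and 24.8 in LXR-DKO cells with and without LPS, and of 35.2 and 25.2 in WT cells. The other, 1450019_at, lay between 0.9 and 9.4 on all arrays. Both control arrays were below the floor, and both LPS arrays were just above it by the brighter probe set. The signal with LPS was higher by at least 0.47 in LXR-DKO and at least 0.28 in WT on the log2 scale, close to the probe set spread of 0.42 and 0.29. LXR-DKO over WT with LPS was 0.18.

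Ccrl2, an atypical receptor that binds the chemoattractant chemerin without known G protein signalling and is known to be induced by LPS in myeloid cells, was higher with LPS in both genotypes. Its 1 probe set, 1427736_a_at, had signals of 624.0 in LXR-DKO cells with LPS, 144.9 in LXR-DKO control cells, 624.5 in WT cells with LPS and 190.8 in WT control cells. Both LPS arrays lay above both control arrays, and the LPS arrays had nearly the same value. The signal with LPS was 4.31-fold higher in LXR-DKO (log2 ratio 2.11) and 3.27-fold higher in WT (1.71). The genotype difference was within the probe set spread in both conditions. Chemerin itself, Rarres2, was below the floor on all 4 arrays, at 16.6 or less. Its signalling receptor gene Cmklr1 had signals of 254.9 and 176.5 in LXR-DKO cells with and without LPS, and of 386.2 and 186.9 in WT cells.

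Fpr2, a receptor for formylated bacterial peptides that also binds serum amyloid A and annexin A1, was higher with LPS to nearly the same extent in both genotypes. Its 1 probe set, 1422953_at, had signals of 3214.4 in LXR-DKO cells with LPS, 1219.9 in LXR-DKO control cells, 3610.9 in WT cells with LPS and 1308.9 in WT control cells. Both LPS arrays lay above both control arrays, and within each condition the genotypes differed by less than the spread. The signal with LPS was 2.63-fold higher in LXR-DKO (log2 ratio 1.40) and 2.76-fold higher in WT (1.46). The LPS response in LXR-DKO minus that in WT was -0.07, the smallest difference of the 8 genes in size.

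S1pr3, a sphingosine 1-phosphate receptor that couples to several classes of G protein, was higher with LPS by all 3 of its probe sets in both genotypes. Its brightest probe set, 1438658_a_at, had signals of 789.6 in LXR-DKO cells with LPS, 134.1 in LXR-DKO control cells, 972.1 in WT cells with LPS and 261.2 in WT control cells. Both LPS arrays lay above both control arrays, and the LXR-DKO control array was below the WT control array by more than the spread. With LPS the signal was 5.89-fold higher in LXR-DKO (log2 ratio 2.56) and 3.72-fold higher in WT (1.90). Probe set 1437173_at, with signals of 162.8, 42.7, 186.0 and 59.2 in LXR-DKO LPS, LXR-DKO control, WT LPS and WT control cells, gave log2 ratios of 1.93 in LXR-DKO and 1.65 in WT. The dimmest, 1460661_at, was below the floor in both control cultures and was higher by at least 1.03 in LXR-DKO and 0.68 in WT. Without LPS, LXR-DKO over WT was -0.96 for the brightest probe set and -0.47 for 1437173_at.

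S1pr1, the sphingosine 1-phosphate receptor that brings leukocytes out of tissue into lymph and blood, was dim on all arrays. Its 1 probe set, 1423571_at, had signals of 57.7 in LXR-DKO cells with LPS, 43.3 in LXR-DKO control cells, 95.5 in WT cells with LPS and 40.7 in WT control cells. The WT array with LPS was the high one, and the other three differed from their neighbours in order by less than the spread. The signal with LPS was 1.33-fold higher in LXR-DKO (log2 ratio 0.41) and 2.35-fold higher in WT (1.23). With LPS, LXR-DKO over WT was -0.73, and without LPS 0.09. With 16 added to the signals and no floor, the log2 LPS ratio in WT was 0.98, below 2-fold.

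**Figure D2:**
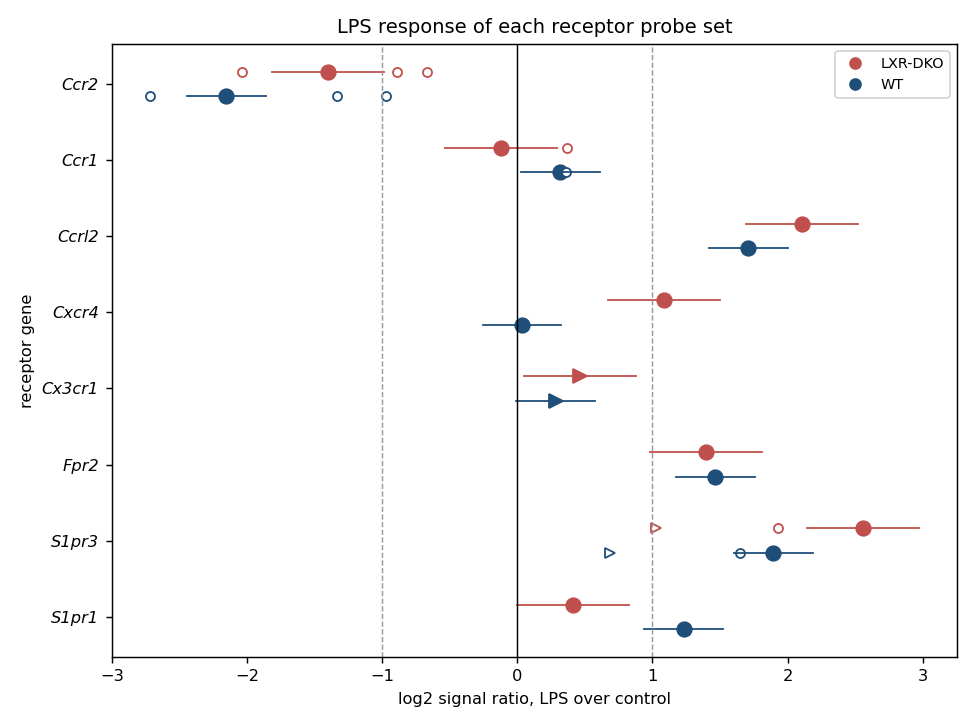
log2 signal ratio of LPS over control for each receptor probe set, LXR-DKO in red above WT in blue. Filled symbols are the brightest probe set of a gene with a bar of 1 SD of the spread between probe sets (0.42 in LXR-DKO, 0.29 in WT), open symbols are the other probe sets, triangles are lower limits, and dashed lines mark 2-fold. All Ccr2 symbols lie left of 0, and the filled symbols of S1pr3, Ccrl2 and Fpr2 lie right of the upper line in both genotypes, while the dimmest S1pr3 probe set has a lower limit of 0.68 in WT.

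**Figure D3:**
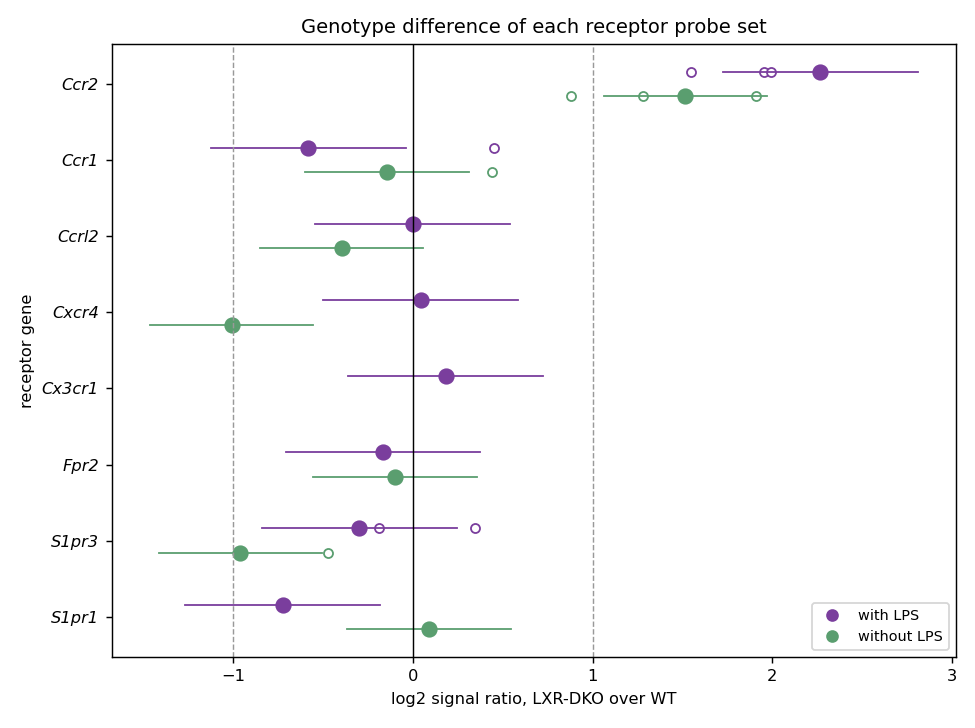
log2 signal ratio of LXR-DKO over WT for each receptor probe set, with LPS in purple above without LPS in green. Filled symbols are the brightest probe set of a gene with a bar of 1 SD of the spread between probe sets (0.54 with LPS, 0.45 without LPS), open symbols are the other probe sets, and dashed lines mark 2-fold. All Ccr2 symbols lie right of 0, between 0.88 and 2.27, and no other receptor's brightest probe set lies right of the upper line.

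**Figure D4:**
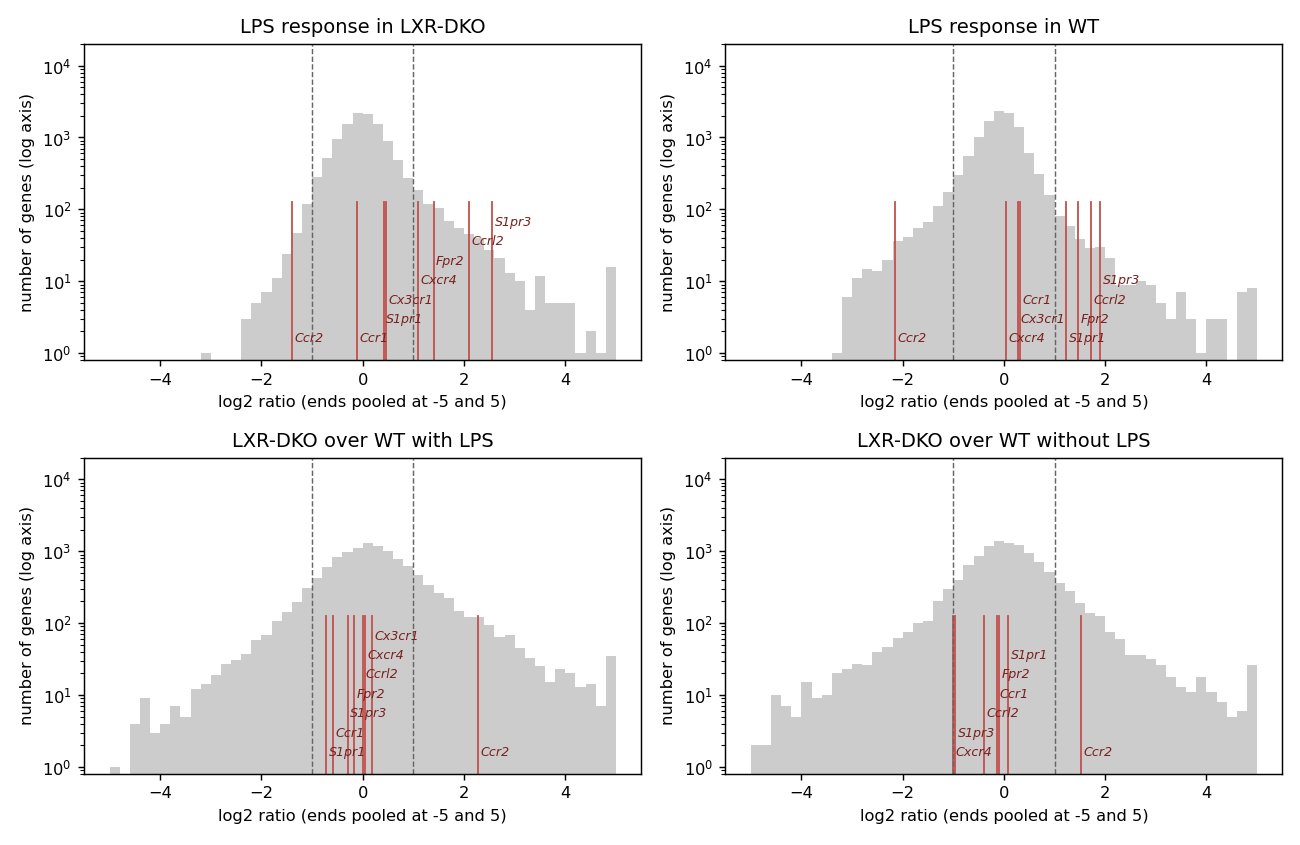
Histograms of the log2 ratio of all measured genes (number of genes on a log axis) in the 4 comparisons, with the brightest probe set of each receptor as a red line and dashed lines at 2-fold. The genotype histograms are wider than the LPS histograms, and Ccr2 lies beyond the dashed lines in all 4 panels.

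To set the regulatory sequence beside these values, the 250 bases before the annotated transcript start were taken from RefSeq (GRCm38.p6) for the 3 receptors higher with LPS in both genotypes and for Ccr2, the receptor that was lower. Windows were found for 8 of the 9 receptor genes. The motifs searched, on both strands, were the NF-kappaB consensus, the core GAGGAA bound by the myeloid factor PU.1, the STAT site TTCNNNGAA and an LXR response element, a direct repeat of AGGTCA with 4 bases between. Capitals mark a match, and no matches overlap in the windows shown. Ccrl2 is at chr9:111057519-111057768 on the minus strand, S1pr3 at chr13:51408368-51408617, Fpr2 at chr17:17887574-17887823 and Ccr2 at chr9:124101933-124102182, each on the plus strand.
Ccrl2: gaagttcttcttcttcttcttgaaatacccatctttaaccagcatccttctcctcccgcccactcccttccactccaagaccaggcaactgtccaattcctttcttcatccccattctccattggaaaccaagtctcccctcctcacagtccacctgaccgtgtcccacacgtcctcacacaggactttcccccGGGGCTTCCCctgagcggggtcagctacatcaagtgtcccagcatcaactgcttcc
S1pr3: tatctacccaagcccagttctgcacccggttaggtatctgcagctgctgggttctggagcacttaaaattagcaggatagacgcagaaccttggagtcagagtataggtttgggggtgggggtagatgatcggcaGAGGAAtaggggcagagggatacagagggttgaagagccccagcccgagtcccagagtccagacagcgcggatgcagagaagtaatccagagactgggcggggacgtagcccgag
Fpr2: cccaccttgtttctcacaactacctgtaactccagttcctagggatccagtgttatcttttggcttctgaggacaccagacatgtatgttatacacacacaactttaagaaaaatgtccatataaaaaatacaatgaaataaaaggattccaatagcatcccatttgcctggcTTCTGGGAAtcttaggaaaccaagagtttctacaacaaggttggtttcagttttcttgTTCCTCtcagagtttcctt
Ccr2: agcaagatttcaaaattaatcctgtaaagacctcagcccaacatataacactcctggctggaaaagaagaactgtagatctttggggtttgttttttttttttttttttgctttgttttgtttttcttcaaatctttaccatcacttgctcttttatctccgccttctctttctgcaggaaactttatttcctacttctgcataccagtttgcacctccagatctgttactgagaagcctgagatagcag

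The Ccrl2 window held an NF-kappaB consensus between 56 and 47 bases before the start, a match found in 7.25% of 32851 such windows. The windows of the other Ccrl2 starts, of which the table gives 2 more downstream, held none of the motifs. S1pr3 held GAGGAA between 115 and 110 bases before its start, and Fpr2 held it on the opposite strand between 19 and 14 bases, where 23.3% of windows held it. Fpr2 also held TTCNNNGAA between 77 and 69 bases, as did 7.02% of windows. The Ccr2 window held none of the 4 motifs, and the LXR response element in this strict form was in none of the receptors' windows and in 0.0152% of all. Ccr1, which did not pass 2-fold with LPS, held an NF-kappaB consensus and GAGGAA. A match is given as letters in the window, not as a bound site.

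Genes were also ranked by how closely their pattern over the 4 arrays followed each of the 6 receptors whose signal spanned at least 1 log2 unit above the floor, which left out Ccr1 and Cx3cr1. The measure was the root mean square difference of centred log2 signals among 9352 other genes that no array put below the floor. With 4 arrays many genes come close, and the ranking is a description. Nearest to Ccr2 were Clec4b1 at 0.14, Pld4 at 0.15 and Ncapg at 0.19, and 11 genes lay within 0.25. Pld4 had signals of 1138.6 and 2512.3 in LXR-DKO cells with and without LPS, and of 178.8 and 850.3 in WT cells. Nearest to S1pr3 were Tnfaip3 at 0.15, Serf1 at 0.21 and Socs3 at 0.22, with 6 genes within 0.25. Serf1 at 0.11, Ak4 at 0.14 and Irak3 at 0.17 were nearest to Ccrl2, with 9 genes within 0.25. Hspa1b, Tbc1d9 and Rai14 were nearest to Fpr2, with 28 genes within 0.25, and Gch1, Cpd and Cmklr1 to S1pr1, with 87. For Cxcr4, with Rflna, Rufy3 and Havcr2 nearest, 218 genes lay within 0.25. A fixed distance tends to take in more genes where a receptor's span is small. Cxcr4 had the smallest log2 span of the 6, at 1.09, against 3.67 for Ccr2. The counts therefore do not compare how common the patterns were.

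Of the genes for ligands of these receptors, 7 of 15 measured passed 2-fold upward with LPS in LXR-DKO and 2 of 14 in WT, and 0 downward in either. Of all measured genes 6.23% passed upward and 1.82% downward in LXR-DKO, and 2.93% and 4.79% in WT. The difference between the ligand counts of the genotypes was not tested. Saa3, whose protein family binds FPR2, was 97.0-fold higher with LPS in LXR-DKO and 25.2-fold higher in WT. The CCR1 ligand gene Ccl3 had a log2 LPS ratio of 3.67 in LXR-DKO and 0.32 in WT, and the CCR2 ligand genes Ccl2 at 3.35 and -0.64 and Ccl7 at 2.86 and -0.73. Ccl3 had signals of 5012.2 and 392.6 in LXR-DKO cells with and without LPS, and of 6867.8 and 5499.5 in WT cells. Ccl7 had signals of 213.5 and 29.5 in LXR-DKO cells, and of 123.7 and 205.6 in WT cells. For these genes the LXR-DKO control array was the low one. Ccl5 was 4.01-fold higher with LPS in LXR-DKO and 28.2-fold higher in WT. Its signals were 8451.2 and 2109.9 in LXR-DKO cells with and without LPS, and 6830.4 and 242.5 in WT cells. For LXR-DKO over WT, 4 of 15 ligand genes passed 2-fold upward and 5 downward without LPS, and 3 of 15 upward and 1 downward with LPS. The shares of all measured genes were 12.7% and 9.28% without LPS, and 17.8% and 8.76% with LPS, and the counts with LPS were near these. Ccl2 had signals of 2227.1 and 218.5 in LXR-DKO cells with and without LPS, and of 2340.3 and 3638.8 in WT cells. In LXR-DKO control cells Ccr2 was thus high where Ccl2 and Ccl7 were low. The CCR2 ligand gene Ccl12 went the other way, with signals of 108.6 in LXR-DKO and 10.2 in WT control cells. LXR-DKO over WT for Ccl12 was at least 1.91 on the log2 scale without LPS and at least 1.38 with LPS. These pairings rest on 1 array per group and were not tested. Camp, which encodes an antimicrobial peptide that binds FPR2 and is also a granulocyte gene, was higher in LXR-DKO by at least 4.71 on the log2 scale without LPS and by 4.07 with LPS. The fractalkine gene Cx3cl1 had signals of 731.4 and 207.7 in LXR-DKO cells with and without LPS, and of 31.3 and 54.0 in WT cells. Cxcl12, the gene for the CXCR4 ligand, had log2 ratios between -0.67 and 0.14 in the 4 comparisons.

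Of 13 measured genes that make, carry and destroy sphingosine 1-phosphate, 1 passed 2-fold upward and 5 downward in LXR-DKO over WT with LPS, where 17.8% and 8.76% of all genes did. Without LPS 2 of 12 passed upward and 4 downward, where 12.7% and 9.28% did, and the list was not tested. The median log2 ratio was -0.82 with LPS and -0.64 without LPS. Sphk1, the kinase that makes the lipid, had signals of 68.0 and 24.7 in LXR-DKO cells with and without LPS, and of 526.2 and 366.4 in WT cells. LXR-DKO over WT was -2.95 on the log2 scale with LPS, and without LPS the signal was at least 12.7-fold lower in LXR-DKO. Sgpl1, the lyase that destroys the lipid irreversibly, stood at -1.52 with LPS and -1.39 without LPS. The lipid phosphatase gene Plpp3 stood at -2.11 and -3.50, and it was higher with LPS at 2.70 in LXR-DKO and 1.31 in WT. Plpp1, another phosphatase gene, stood at -2.44 with LPS. The phosphatase gene Sgpp1 went the other way at 1.24 without LPS, and at 0.60 with LPS.

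A list of genes for G protein coupling, signalling below the receptors and receptor desensitisation had medians above 0 in LXR-DKO over WT. These medians were 0.60 with LPS and 0.53 without LPS. Cnr2 and Jagn1, which are in none of these classes, were also in the list. With LPS 9 of 27 measured genes passed 2-fold upward and 2 downward, and without LPS 6 of 26 upward and 1 downward. The shares of all measured genes were 17.8% and 8.76% with LPS, and 12.7% and 9.28% without LPS. The G protein regulator gene Rgs3 had a log2 ratio of 4.06 with LPS and 2.84 without LPS, the receptor kinase gene Grk3 of 2.63 and 2.04, Grk6 of 2.01 and 1.51, and the phosphoinositide kinase gene Pik3cg of 2.19 and 2.14. Rgs1, another G protein regulator, had signals of 1344.6 and 177.3 in LXR-DKO cells with and without LPS, and of 3328.2 and 2806.3 in WT cells. It was lower in LXR-DKO at -3.98 without LPS and -1.31 with LPS. For LPS over control, 2 of 27 genes passed upward and 1 downward in LXR-DKO, and 0 of 26 upward and 3 downward in WT. Of all measured genes 6.23% and 1.82% did in LXR-DKO, and 2.93% and 4.79% in WT.

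Of the genes for other chemoattractant receptors, a list that holds Ccr7, 8 of 19 measured passed 2-fold upward and 2 downward in LXR-DKO over WT with LPS, and 7 of 17 upward and 1 downward without LPS, with medians of 0.44 and 0.64 against -0.08 and -0.14 for the receptors described here. The difference between the lists was not tested. Of all measured genes 17.8% passed upward and 8.76% downward with LPS, and 12.7% and 9.28% without LPS. With LPS over control, 2 of 19 other receptor genes passed upward and 2 downward in LXR-DKO, and 1 of 15 upward and 4 downward in WT. The shares of all measured genes were 6.23% and 1.82% in LXR-DKO, and 2.93% and 4.79% in WT. Ccr7 and Gpr183, an oxysterol receptor gene, had the largest genotype ratios, Ccr7 of 4.82 with LPS and 2.56 without LPS and Gpr183 of 3.67 and 2.73, while the complement receptor gene C3ar1 stood at -1.62 and -1.25. Within the sphingosine 1-phosphate family, S1pr4 had signals of 191.2 and 241.9 in LXR-DKO cells with and without LPS, and of 23.3 and 81.6 in WT cells. S1pr2 had signals of 408.9 and 472.7 in LXR-DKO cells with and without LPS, and of 933.2 and 935.4 in WT cells, and S1pr5 was at 1.3 or less on all arrays. The leukotriene receptor gene Cysltr1 resembled Ccr2 in direction, with LPS ratios of -1.31 in LXR-DKO and -1.02 in WT and genotype ratios of 1.62 with LPS and 1.91 without LPS. The B cell homing receptor gene Cxcr5 was higher in LXR-DKO with LPS by at least 2.80, beside the B cell markers given above.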

How the data were processed

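Total RNA of 4 cultures was hybridised to 1 single-colour oligonucleotide array each, from biotinylated cRNA made by 2 rounds of amplification per the labels. The deposited values are linear intensity signals, 1 per probe set and array, computed by the authors with MAS5 per the submitters' processing notes, with version and settings not given in the sources used here. They were already scaled, with a trimmed mean of 200.0 on every array. Control probe sets (64) were left out. No further scaling was applied, and the median of all signals, 28.9, served as a floor. The probe set with the highest mean stood for a gene, a gene was measured in a comparison when 1 of its arrays reached the floor, and 2-fold differences were counted. A ratio with a value below the floor is a lower limit. The number of arrays limits the precision, and no p-value was computed.

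The platform annotation gave 34945 probe sets 1 gene symbol, 932 several and 9160 none, and only those with 1 were named. The members and lists were chosen with earlier results of these data known, and the motifs, sex-linked and neighbouring genes after values were seen. Named were all members and, per list, up to 4 genes with the largest ratio and any needed to show both directions. Genes outside this rule, such as S1pr2, S1pr5, Cysltr1, Cmklr1, Rarres2 and Cxcl12, were chosen for their link to a receptor after values were seen. Counting was tested on simulated data. Alternatives were 4 scalings, 3 floor settings and 2 choices of probe set. Python 3.11.15, numpy 2.4.6 and pandas 2.3.3 were used.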

Additional observations from a re-analysis of the deposited data

Results flagged for a closer look

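For 3 receptors the brightest probe set changed direction between genotypes or conditions, and none of these differences was tested, since each rests on 1 array per group. Ccr1 had a log2 LPS ratio of -0.12 in LXR-DKO and of 0.32 in WT, and its other probe set was above 0 in both. Cxcr4 had a log2 ratio of LXR-DKO over WT of 0.042 with LPS and of -1.01 without LPS. S1pr1 had a ratio of LXR-DKO over WT of -0.73 with LPS and of 0.089 without LPS. In each pair at least 1 of the 2 values lay within the spread between probe sets.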

How the results depend on the processing

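Each result was recomputed under 9 alternatives. Of 72 recomputed counts of receptors past 2-fold, 65 stayed within 1.5 times the count reported. The 7 others all concern receptors lower in LXR-DKO than in WT. With LPS the count was 1 in place of 0 with arrays set to a common 75th percentile and after quantile normalization, S1pr1 in both cases. Without LPS it was 2 in place of 1 under these scalings and after centring on the median log2 ratio, where S1pr3 joined Cxcr4, and 0 with hybridisation control scaling and without a floor. Of 337 single receptor values, 333 moved by less than the spread between probe sets, 4 moved further and 0 of those past 2-fold changed sign. Part of the 333 could not move. A changed floor leaves ratios of signals above it as they are. The choices of probe set leave a gene as it is when it has 1 probe set, or when its brightest has no suffix. The 4 that moved further were the S1pr3 LPS ratio in LXR-DKO, 1.93 both as the median over probe sets and without suffixed probe sets, the Ccr2 LPS ratio in WT, -1.75 as that median, and the S1pr3 genotype ratio without LPS, -0.47 without suffixed probe sets. Ccr2 stayed between 1.97 and 2.54 for LXR-DKO over WT with LPS and between 1.33 and 1.72 without LPS. Below 2-fold, the sign changed with the setting for LXR-DKO over WT of Fpr2 in both conditions, of Ccrl2, Cxcr4 and Cx3cr1 with LPS and of Ccr1 and S1pr1 without LPS, and for the LPS ratio of Ccr1 in LXR-DKO and of Cxcr4 in WT. The Ccrl2 probe set carries a suffix, so 1 alternative gave no value for it. As the median over probe sets, the LPS ratio of S1pr3 was below that of Ccrl2 in both genotypes. Scaling moved the median ratio over genes at the floor or higher on all 4 arrays, fewer genes than those measured in a comparison, for LXR-DKO over WT with LPS from 0.13 to -0.15 at the same 75th percentile and to 0.39 with hybridisation controls. The share of genes higher among those past 2-fold was 67.0% there, but 47.1% and 81.5% under these scalings. Without LPS it was 57.7%, but 44.1% and 71.3%, and for the LPS response in WT 38.0%, but 50.6% at the same 75th percentile. Over all alternatives the number of genes at least 2-fold higher ran from 324 to 1541 for the LPS response in LXR-DKO, from 188 to 833 in WT, and from 947 to 3080 and from 744 to 2065 for LXR-DKO over WT with and without LPS. The numbers lower ran from 114 to 560, 150 to 1235, 670 to 1724 and 611 to 1863. No paired analysis was possible because each group has 1 array. Signals near the floor limit what can be said of Cx3cr1 and S1pr1.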

Other observations

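Ccr1 and Ccr2 lie on chromosome 9 in 1 cluster of receptor genes, and in RefSeq's order the coding genes between them are Ccr1l1 and Ccr3. Ccr3 was at 2.6 or less on all 4 arrays. Ccr1l1 had signals of 12.3 and 8.6 in LXR-DKO cells with and without LPS, and of 18.0 and 33.9 in WT cells. Ccr3 was thus far below the floor, and Ccr1l1 was above it in WT control cells only. These 2 genes cannot show whether they share the genotype difference of Ccr2, and the Ccr1 probe sets went opposite ways. On the other side of Ccr2, 2010315B03Rik had signals of 301.4 and 249.6 in LXR-DKO cells with and without LPS, and of 228.7 and 165.7 in WT cells, with log2 ratios of LXR-DKO over WT of 0.40 and 0.59. The coding gene before Ccrl2 in that order is the granulocyte gene Ltf, with signals of 550.2 and 947.9 in LXR-DKO cells with and without LPS, and of 13.7 and 15.4 in WT cells, while Ccrl2 differed between genotypes by less than the spread in both conditions.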
